A study of Mus musculus with 6 samples.

Results

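Antioxidant enzymes, thioredoxins, glutaredoxins, metallothioneins and selenium proteins were examined in mouse liver after 2 days on a high fat diet (HFD) or on a regular diet (RD). The rule was a list of 40 gene names with no threshold on measured values, though the list was drawn up with earlier results of these data known. A gene counted as measured when a probe set of the array carried its symbol and no other. That held for 37 of the 40, among 19938 genes tested in all. Prdx5, Prdx6 and Ucp2 were not analysed here. The groups were 3 HFD and 3 RD livers of C57BL/6 mice, an inbred laboratory strain, with 1 array of total RNA for each biological replicate, and both diets were eaten freely. Neither the substrain, sex or age of the animals nor the composition of the diets is given in the labels, and the letters NI in all 6 titles have no stated meaning. All levels below are log2 signals of 1 probe set per gene, and all differences are HFD minus RD on that scale.

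Oxygen-using cells make superoxide and hydrogen peroxide, and the liver is among the organs richest in the enzymes that remove them. Superoxide dismutases turn superoxide into hydrogen peroxide, which catalase, the glutathione peroxidases and the peroxiredoxins then break down. Glutathione and thioredoxin supply the electrons for the peroxidases and peroxiredoxins, though not for catalase, and NADPH recharges both. Several of these enzymes carry selenium as the amino acid selenocysteine. Metallothioneins are small cysteine-rich proteins that bind zinc and copper, and their transcription in liver follows zinc, glucocorticoids and feeding state. Xanthine dehydrogenase and the aldehyde oxidases, which hold molybdenum, stand on the other side, since they can release superoxide and hydrogen peroxide.

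In HFD livers Selenbp2, Selenbp1, Mt1, Aox3, Glrx and Prdx3 fell, and Gpx2, Aox1 and Gss rose (limma, adjusted p under 0.05 over all genes). The falls ran from a log2 difference of -1.51 for Selenbp2 to -0.30 for Prdx3, and the rises from 0.51 for Gss to 0.96 for Gpx2. Thus 9 of 37 measured members, or 24.3%, passed the test, against 5.35% of all genes tested. The share higher in HFD was 8.11% of the members and 3.11% of all genes, and the share lower was 16.2% of the members and 2.24% of all genes. Most members lay above the median signal of all genes, so these shares are not matched for signal. With only genes above that median fitted, 862 genes were higher and 619 lower, among them 2 members higher and 7 lower. That fit tested fewer genes and called more in each direction. The shares of all genes in it were thus above 3.11% higher and 2.24% lower, and it showed no excess of members higher. The median difference over the 37 members was -0.01 and that over all genes 0.00, and the members that passed went both ways. Of the 9, Selenbp1, Selenbp2, Gpx2, Aox1 and Gss passed also when any 1 of the 6 arrays was left out. The falls of Mt1, Aox3, Glrx and Prdx3 depended on single arrays, as given beside each, and without an array the members that fell numbered between 2 and 4.

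**Figure D1:**
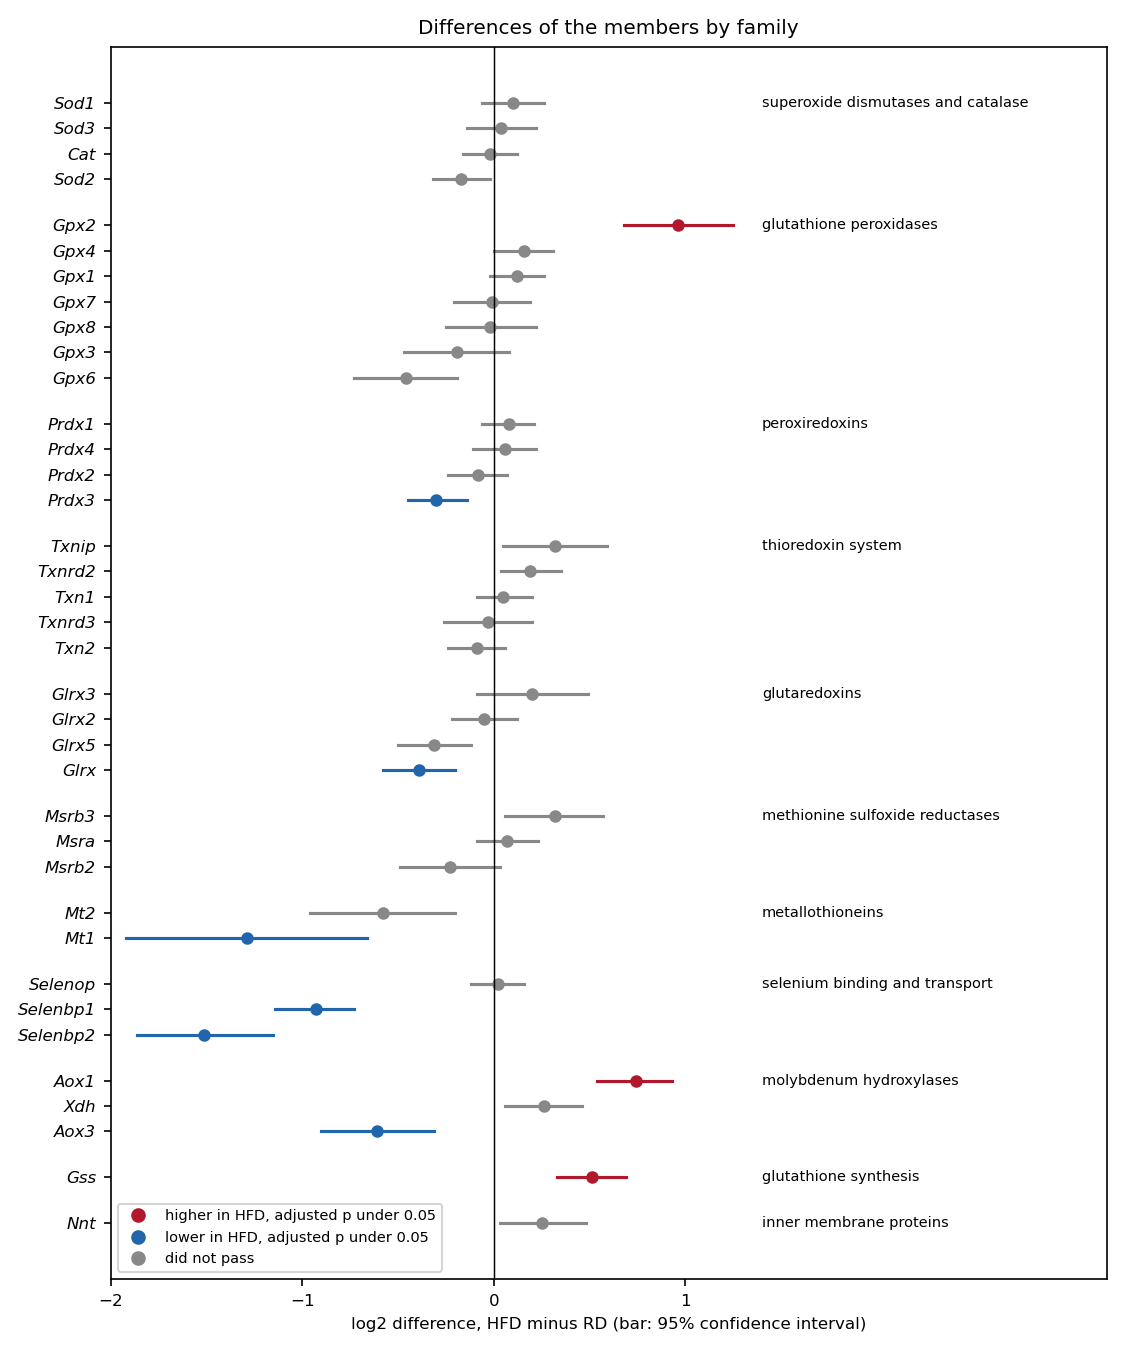
Log2 difference, HFD minus RD, of the 37 measured members, grouped by family, with the 95% confidence interval of the limma fit as a bar (3 arrays per diet). Red points were higher and blue points lower in HFD at an adjusted p under 0.05, and grey points did not pass; Selenbp2 lies farthest to the left at -1.51 and Gpx2 farthest to the right at 0.96, while all 9 superoxide dismutase, catalase and thioredoxin system genes are grey.

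The tissue is labelled liver, and none of 7 measured hepatocyte markers passed the test in limma (1 at an unadjusted p under 0.05). Their summed linear signal was 106435 to 110452 in HFD and 109796 to 112172 in RD arrays. Of 10 Kupffer cell (liver macrophage) markers 5 rose, with summed signals of 16543 to 23332 in HFD and 13711 to 14385 in RD. Leaving out HFD replicate 2 gave 7 and leaving out HFD replicate 1 gave 5. Leaving out HFD replicate 3 or RD replicate 3 gave 2, and leaving out RD replicate 1 or 2 gave 1. For cholangiocytes, the cells that line bile ducts, 4 of 4 measured markers rose, with sums of 1142 to 1300 in HFD and 841 to 931 in RD. That count fell to 0 without HFD replicate 1 or RD replicate 1 and to 1 without any other array. Of 6 monocyte and neutrophil markers 2 rose, Lyz2 (0.68 ± 0.13) and Cd14 (0.52 ± 0.07), and 1 rose without any 1 RD array. Their sums were 2301 to 3128 in HFD and 1639 to 1747 in RD, and mostly follow Lyz2, the brightest of the 6. In this list 5 differences were positive and 1 negative. S100a8 and S100a9 differed by -0.21 ± 0.09 and 0.02 ± 0.09 and did not pass, so the sum does not stand for neutrophils. No sinusoidal endothelial marker of 7 and no stellate cell marker of 6 passed in limma (0 of either list at an unadjusted p under 0.05), with sums of 12503 to 14253 and 11003 to 11659 in HFD and of 12013 to 12694 and 10099 to 10868 in RD. HFD replicate 1 had the highest sum of all arrays for each of the 5 non-hepatocyte lists. No marker was at 0, since the array gives every probe set a value. In whole tissue, fewer cells of a type and less RNA per cell cannot be told apart.

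Transcripts of both selenium-binding proteins fell in HFD livers. Selenbp1 and Selenbp2 encode closely related cytosolic proteins that bind selenium without holding it as selenocysteine; human SELENBP1 is a methanethiol oxidase, and mouse Selenbp2 is known as an acetaminophen-binding protein of liver. Selenbp2 (probe set 10494085) had log2 signals of 10.84, 11.25 and 10.56 in HFD livers, against 12.45, 12.34 and 12.38 in RD livers. The RD arrays lay within a narrow band and every HFD array lay far below it. The difference was -1.51 ± 0.15 (SE; adjusted p = 0.00154), a 2.84-fold fall.

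Selenbp1 (probe set 10494114) had 10.88, 11.15 and 10.84 in HFD livers, against 11.94, 11.85 and 11.88 in RD livers. Again the diets did not overlap, and HFD replicate 2 was the least lowered array for both genes. Its difference was -0.93 ± 0.09 (adjusted p = 0.00127), a 1.91-fold fall. Within each array, the log ratio of Selenbp2 to Selenbp1 was -0.07 ± 0.20 in HFD and 0.50 ± 0.01 in RD (mean ± SD, n = 3 each), a change of -0.57. An exact permutation test of that change, two-sided, gave p = 0.1 (0.1 adjusted over 3 paralog pairs), the smallest value that 3 arrays against 3 allow. Because the genes are near copies, probes of either can bind RNA of both, so their separate values are uncertain.

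The promoter windows of the pair are shown because both genes fell. Each window runs from 250 bases before to 50 bases after the start of the gene in RefSeq (GRCm38.p6), on the + strand, at chr3:94932833-94933132 for Selenbp1 and chr3:94693323-94693622 for Selenbp2. Capitals mark the core of the metal response element, searched as TGCACNC and TGCGCNC on both strands.
Selenbp1: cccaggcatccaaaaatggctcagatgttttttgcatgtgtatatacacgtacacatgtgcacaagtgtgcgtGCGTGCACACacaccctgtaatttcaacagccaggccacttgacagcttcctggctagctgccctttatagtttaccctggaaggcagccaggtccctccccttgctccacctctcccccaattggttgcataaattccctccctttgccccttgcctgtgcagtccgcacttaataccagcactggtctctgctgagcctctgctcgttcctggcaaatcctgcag
Selenbp2: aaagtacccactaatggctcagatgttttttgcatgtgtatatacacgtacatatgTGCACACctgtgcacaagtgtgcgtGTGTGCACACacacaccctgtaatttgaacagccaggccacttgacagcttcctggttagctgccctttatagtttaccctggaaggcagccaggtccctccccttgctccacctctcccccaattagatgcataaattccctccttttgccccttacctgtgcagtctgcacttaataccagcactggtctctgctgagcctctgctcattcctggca
Over 288 aligned bases the windows were 94.4% identical. They held 2 matches in Selenbp1 and 3 in Selenbp2, among which the Selenbp1 pair and the last 2 of Selenbp2 overlap on opposite strands. A match is a run of letters and not a bound site. In the RefSeq order, 3 protein-coding genes lie between the pair on chromosome 3.

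Selenoprotein P, made by hepatocytes to carry selenium in plasma, did not pass: Selenop had a difference of 0.02 with a 95% interval from -0.12 to 0.16. Of the 7 members that contain selenocysteine (Gpx1, Gpx2, Gpx3, Gpx4, Selenop, Txnrd2 and Txnrd3), 1 rose, Gpx2, and 0 fell, with a median difference of 0.12. Among 14 other selenoproteins 2 rose and 3 fell, with a median of 0.04. Dio1, the deiodinase that activates thyroid hormone in liver, had 10.26, 10.02 and 10.15 in HFD livers, against 11.52, 11.74 and 11.37 in RD livers. These diets were separated by more than the spread within either, and the difference was -1.40 ± 0.11 (adjusted p = 0.000511). Sephs2, which makes the selenium donor for selenocysteine and is itself a selenoprotein, fell by 0.43 ± 0.07 on the log2 scale (adjusted p = 0.0125), a call lost without RD replicate 1 (adjusted p = 0.0542). The cytosolic thioredoxin reductase Txnrd1 rose by 0.51 ± 0.09 (adjusted p = 0.0154), a call lost without RD replicate 2 (adjusted p = 0.0638), and Selenos of the endoplasmic reticulum by 0.38 ± 0.08 (adjusted p = 0.033). Of 6 fits with an array omitted, Selenos passed only in that lacking HFD replicate 3 (highest adjusted p 0.11). Msrb1, picked out after seeing its values, fell by 0.49 ± 0.11 and passed only in that lacking RD replicate 3 (highest adjusted p 0.135). Omitting HFD replicate 1 moved the list's median to -0.01. Single omissions left 0 to 2 rises and 1 to 3 falls in the list, with 1 fall when RD replicate 1 and 0 rises when RD replicate 2 was omitted. None of 6 genes that insert selenocysteine passed in limma (1 at an unadjusted p under 0.05, Eefsec), and their median was 0.06.

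Of the 2 metallothioneins measured, Mt1 fell in HFD livers and Mt2 did not pass. Mt1 (probe set 10574027) had log2 signals of 11.59, 12.66 and 12.75 in HFD livers, against 13.41, 13.80 and 13.67 in RD livers. HFD replicate 1 lay more than 1 unit below the other HFD arrays, which themselves lay below all RD arrays. The difference was -1.29 ± 0.28 (adjusted p = 0.0342), a 2.45-fold fall with a 95% interval of -1.92 to -0.66 on the log2 scale. It was lost without any 1 RD array (adjusted p up to 0.122), and without HFD replicate 1, the lowest array, it was -0.92.

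Mt2 (probe set 10574023) had 13.09, 13.75 and 13.75 in HFD livers, against 14.03, 14.14 and 14.16 in RD livers. Its order of arrays was like that of Mt1, with HFD replicate 1 lowest, and the diets did not overlap. The difference of -0.58 ± 0.17 did not pass (adjusted p = 0.0904), and it did not pass in any alternative fit, arrays left out included (adjusted p from 0.0571 to 0.314). Without HFD replicate 1 it was -0.36. The log ratio of Mt1 to Mt2 was -1.19 ± 0.26 in HFD and -0.48 ± 0.14 in RD (SD, n = 3 each), a change of -0.71 (exact permutation p = 0.1, the smallest possible). Mt3 and Mt4, paralogs chosen after their values were seen best known from brain and squamous epithelium, had differences of -0.10 and -0.15 and did not pass.

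The windows of Mt1 and Mt2, at chr8:94178839-94179138 and chr8:94172368-94172667 on the + strand of the same build, are shown because metallothioneins are the textbook genes of the metal response element, which the zinc sensor MTF1 binds. The same letters are in capitals.
Mt1: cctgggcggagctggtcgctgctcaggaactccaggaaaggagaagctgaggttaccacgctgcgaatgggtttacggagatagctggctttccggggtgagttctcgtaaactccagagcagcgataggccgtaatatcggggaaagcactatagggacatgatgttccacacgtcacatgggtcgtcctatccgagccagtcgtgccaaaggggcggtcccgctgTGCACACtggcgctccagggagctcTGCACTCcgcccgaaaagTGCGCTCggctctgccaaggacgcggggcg
Mt2: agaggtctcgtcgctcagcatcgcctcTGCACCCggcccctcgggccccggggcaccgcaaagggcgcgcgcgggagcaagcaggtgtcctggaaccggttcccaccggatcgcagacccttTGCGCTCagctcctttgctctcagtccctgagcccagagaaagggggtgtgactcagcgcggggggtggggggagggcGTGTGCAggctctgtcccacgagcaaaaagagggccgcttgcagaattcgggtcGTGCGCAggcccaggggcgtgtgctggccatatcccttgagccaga
Mt1 held 3 matches and Mt2 held 4, none overlapping another. At least 3 matches were found in 3 of 35 members with a window, namely Mt1, Mt2 and Selenbp2, and in 1.97% of all 32851 windows, while at least 1 was found in 11 members and in 25.7% of all windows. A member with several windows, such as Glrx, was counted by the window with most matches, whereas the shares are of single windows. No protein-coding gene lies between Mt1 and Mt2 in the RefSeq order.

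Among 10 genes of zinc and copper handling 1 fell and 0 rose, with a median difference of -0.06. The gene that fell was Slc39a14, a zinc and manganese importer of hepatocytes, with 11.53, 11.52 and 11.36 in HFD livers, against 11.97, 11.96 and 12.00 in RD livers. Its difference of -0.50 ± 0.07 (adjusted p = 0.00707) passed with any 1 array left out. The zinc exporter Slc30a1, which like the metallothioneins is a target of MTF1, had a difference of -0.40 ± 0.10 and did not pass (adjusted p = 0.0717), nor did the copper importer Slc31a1 (-0.26 ± 0.08) and the copper pump Atp7b (-0.25 ± 0.09). A second list member fell without RD replicate 1. Mtf1 itself had a difference of -0.02 with an SE of 0.07. Of 6 glucocorticoid responsive genes 1 rose, the kinase Sgk1 (0.38 ± 0.07, adjusted p = 0.0182), which no longer passed when HFD replicate 1 or 3 or RD replicate 1 or 2 was omitted (highest adjusted p 0.0746). The others did not pass, among them Fkbp5 at -0.49 ± 0.13, Tsc22d3 at -0.44 ± 0.12 and Zbtb16 at -0.28 ± 0.12.

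**Figure D2:**
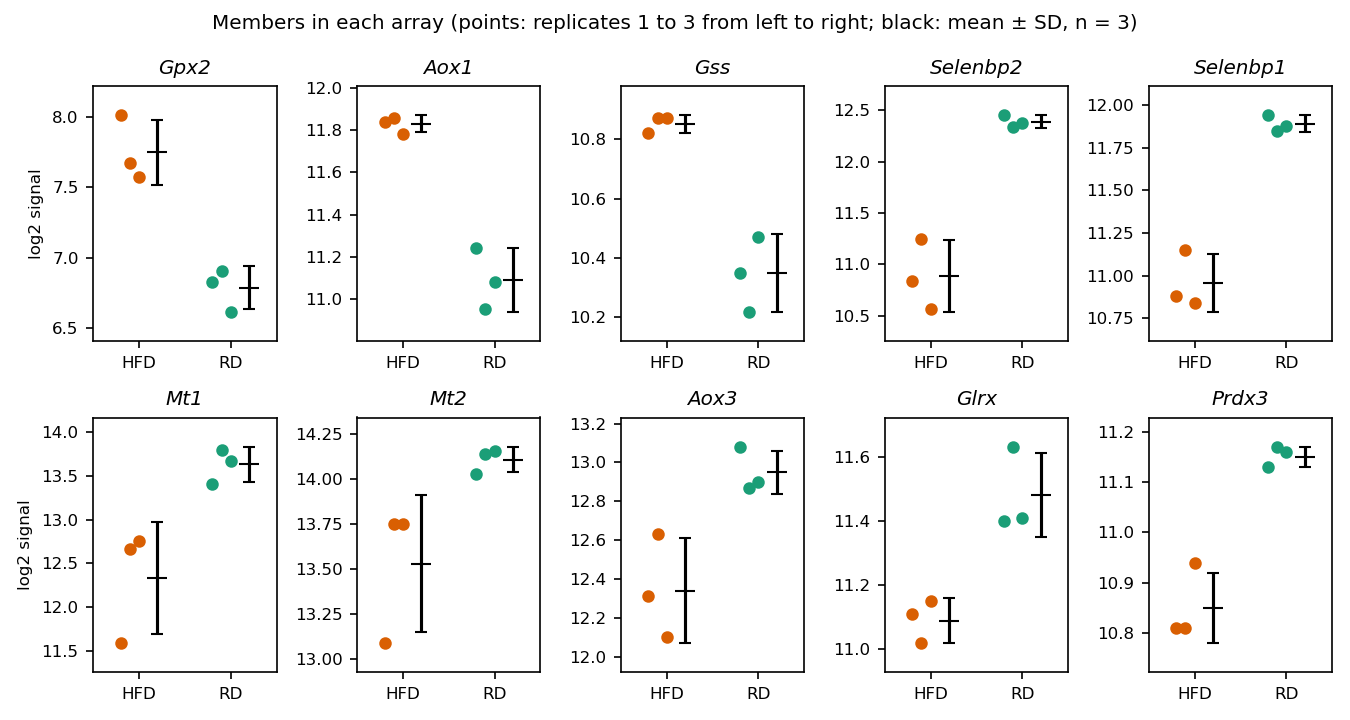
Log2 signal of the 9 members that passed the test and of Mt2 in each array, HFD to the left and RD to the right in every panel, with replicates 1 to 3 from left to right and the mean ± SD (n = 3) in black. Axes differ between panels and do not start at 0; the diets do not overlap in any panel, and HFD replicate 1 is the lowest point for Mt1 (11.59) and Mt2 (13.09).

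No superoxide dismutase passed in limma, nor did catalase (1 of the 4 at an unadjusted p under 0.05). Sod2, the manganese enzyme of mitochondria, had the smallest p of the 4, with 12.76, 12.64 and 12.70 in HFD livers, against 12.81, 12.89 and 12.90 in RD livers. These values did not overlap, but the difference of -0.17 ± 0.07 did not pass (adjusted p = 0.209). The copper and zinc enzyme Sod1 of the cytosol differed by 0.10 (95% interval -0.06 to 0.26) and the extracellular Sod3 by 0.04 (-0.14 to 0.22). Catalase of peroxisomes, Cat, differed by -0.02, with a 95% interval of -0.16 to 0.12.

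Glutathione peroxidases differed among themselves. Gpx2, a selenium enzyme known mainly from gut epithelium and a known NRF2 target, was the only member of the 7 that passed. Gpx2 (probe set 10401109) had log2 signals of 8.01, 7.67 and 7.57 in HFD livers, against 6.83, 6.91 and 6.62 in RD livers. All HFD arrays lay above all RD arrays, with HFD replicate 1 the highest. The rise was 0.96 ± 0.12 (adjusted p = 0.00494), or 1.95-fold, and 0.83 without HFD replicate 1. Its mean lay below the median of all genes, and detection calls were not used here, so a signal near background in RD would understate the fold. The marker sums of cholangiocytes, Kupffer cells, monocytes and neutrophils, and stellate cells given above were also higher in every HFD than in every RD array. All of these sums were highest in HFD replicate 1, and no stellate cell marker passed. A sum of linear signals mostly follows its brightest gene, which for stellate cells was Dcn (0.15 ± 0.07, not passing). Of the 6 stellate cell markers 4 had a positive and 2 a negative difference, with a median of 0.03, so their sum does not show a rise of the list. The part of these cells in the rise of Gpx2 was not tested. Gpx1, the main peroxidase of liver cytosol, differed by 0.12 (95% interval -0.02 to 0.26), and Gpx4, which reduces lipid peroxides in membranes, by 0.16 on its brighter probe set and 0.14 on the other. Gpx6, chosen after its values were seen and known as an olfactory enzyme, had a difference of -0.46 ± 0.12 (adjusted p = 0.0672) at a signal below the median of all genes, and it passed with array weights and with an intensity trend and robust prior. The others, Gpx3, Gpx7 and Gpx8, had differences from -0.19 to -0.01.

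Glutathione synthesis was represented among the members by 1 gene, which rose. Gss, the glutathione synthetase that completes the tripeptide, had 10.82, 10.87 and 10.87 in HFD livers, against 10.35, 10.22 and 10.47 in RD livers. The HFD arrays were tightly grouped and stood above every RD array. Its difference was 0.51 ± 0.08 (adjusted p = 0.011), a 1.42-fold rise. Gclc and Gclm, the subunits of the rate-limiting glutamate-cysteine ligase, rose by 0.69 ± 0.08 and 0.46 ± 0.07, and the glutathione reductase Gsr by 0.66 ± 0.07; these 3 were picked out after seeing their values. They belong to a list of 19 measured NRF2 redox targets outside the members, of which 13 rose and 1 fell, Me1 (-0.47 ± 0.07), with a median of 0.66. Omitting single arrays left 10 to 13 rises, and without RD replicate 1 Me1 no longer passed (adjusted p = 0.0542). Those with the smallest p were Srxn1, which repairs overoxidised peroxiredoxins (1.46 ± 0.07), the carbonyl reductase Cbr1 (1.38 ± 0.09), the haem oxygenase Hmox1 (1.13 ± 0.10) and the quinone reductase Nqo1 (1.59 ± 0.14). Among the regulators, 0 of 9 passed in limma (2 at an unadjusted p under 0.05), with Nfe2l2, the gene of NRF2, at 0.28 ± 0.07 (adjusted p = 0.0539) and its inhibitor Keap1 at 0.02 ± 0.06. Centring each array on its median gave 1 rise in that list.

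The antioxidant response element, the site of NRF2, was searched as TGACNNNGC in the promoter windows. Its letters were found in 5 of the 35 members with a window, counted as above, and in 12.4% of all windows. None of the 9 members that passed was among them, which says only that these letters are not within the 300 bases searched.

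Peroxiredoxins, thiol peroxidases that take most cellular peroxide, had 4 measured members of 6. Prdx3, the enzyme of the mitochondrial matrix, had 10.81, 10.81 and 10.94 in HFD livers, against 11.13, 11.17 and 11.16 in RD livers. Every HFD array was below every RD array, by a small margin. The difference was -0.30 ± 0.07 (adjusted p = 0.0411), a 1.23-fold fall. With single arrays omitted it passed only in the fit lacking HFD replicate 3 (highest adjusted p 0.124), and not when each array was centred on its median (adjusted p = 0.0529). The cytosolic Prdx1 and Prdx2 differed by 0.08 and -0.08 and Prdx4 of the endoplasmic reticulum by 0.06, and none of these passed. The second probe sets of Prdx1 and Prdx2 gave 0.04 and -0.06.

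None of the 5 members of the thioredoxin system passed in limma, although 2 had an unadjusted p under 0.05. The reductase Txnrd1, which is not a member, rose as given above. Thioredoxin of the cytosol, Txn1, differed by 0.05 (95% interval -0.09 to 0.20) and the mitochondrial Txn2 by -0.09 (-0.24 to 0.06). Txnrd2, the mitochondrial reductase of thioredoxin, had 9.12, 9.18 and 9.10 in HFD livers, against 8.86, 9.01 and 8.96 in RD livers. Though the diets did not overlap, the difference of 0.19 ± 0.07 did not pass (adjusted p = 0.164). Txnip, the arrestin-like inhibitor of thioredoxin that carbohydrate feeding induces through ChREBP, had 11.30, 11.72 and 11.50 in HFD livers, against 11.15, 11.07 and 11.35 in RD livers; it was chosen after its values were seen. Its diets overlapped, and the difference of 0.32 ± 0.12 did not pass (adjusted p = 0.179). Of 7 glucose responsive ChREBP genes 4 fell and 0 rose, with a median of -0.44, namely Acly (-0.83 ± 0.11), G6pc (-0.65 ± 0.09), Khk (-0.44 ± 0.07) and Pklr (-0.83 ± 0.14). Pklr no longer passed when RD replicate 1 or 2 was omitted (highest adjusted p 0.0683). Mlxipl, the gene of ChREBP and 1 of the 7, had the only positive difference, 0.23 ± 0.09, and did not pass in limma (adjusted p = 0.224). None of 4 alpha arrestins listed beside Txnip (Arrdc1 to Arrdc4) passed in limma (0 at an unadjusted p under 0.05, median -0.10), though 1 fell without HFD replicate 2.

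Glutaredoxins reduce protein-glutathione disulfides or carry iron-sulfur clusters. Glrx, the cytosolic enzyme, had 11.11, 11.02 and 11.15 in HFD livers, against 11.40, 11.63 and 11.41 in RD livers. The groups were apart, and RD replicate 2 stood above the other RD arrays. The difference was -0.39 ± 0.08 (adjusted p = 0.0349), a 1.31-fold fall, but it did not pass in any of the 6 fits with an array omitted (adjusted p from 0.0648 to 0.105). Glrx5, the mitochondrial cluster carrier, chosen after its values were seen, differed by -0.31 ± 0.08 without passing (adjusted p = 0.079), and it passed among the brighter genes and with an intensity trend. Glrx2 and Glrx3 differed by -0.05 and 0.20 with intervals that include 0.

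Methionine sulfoxide reductases repair oxidised methionine, and none of 3 passed in limma (1 at an unadjusted p under 0.05). Msrb3 had the smallest p, with 9.71, 9.65 and 9.54 in HFD livers, against 9.09, 9.35 and 9.52 in RD livers. The lowest HFD and the highest RD array nearly touched. Its difference of 0.32 ± 0.11 did not pass (adjusted p = 0.155) and was 0.20 without RD replicate 1, while those of Msra and Msrb2 were 0.07 and -0.23.

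Transcripts of the molybdenum hydroxylases Aox1 and Aox3 moved in opposite directions. Aox1, the aldehyde oxidase whose human counterpart oxidises many drugs, had 11.84, 11.86 and 11.78 in HFD livers, against 11.24, 10.95 and 11.08 in RD livers. Each HFD array exceeded each RD array by more than the spread within either diet. The rise was 0.74 ± 0.09 (adjusted p = 0.00289), or 1.67-fold.

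Aox3, an aldehyde oxidase that mouse liver expresses and that is a pseudogene in humans, had 12.31, 12.63 and 12.10 in HFD livers, against 13.08, 12.87 and 12.90 in RD livers. All HFD arrays were lower, and they were more spread than the RD arrays. The difference was -0.61 ± 0.13 (adjusted p = 0.0349), a 1.52-fold fall, which with single arrays omitted passed only in the fit lacking HFD replicate 2 (highest adjusted p 0.128). The log ratio of Aox1 to Aox3 within arrays was -0.52 ± 0.23 in HFD and -1.86 ± 0.05 in RD (SD, n = 3 each), a change of 1.34 (exact permutation p = 0.1, the smallest possible). Both genes stand side by side on chromosome 1 in the RefSeq order with no protein-coding gene between them, and their promoter windows were 59.7% identical over 263 aligned bases. Neither window held the letters of either element. Aox4 and Aox2, chosen after their values were seen and known from gland and nasal tissue, differed by -0.13 and -0.07 and did not pass. Xdh, which can act as the oxidase that makes urate and superoxide, differed by 0.26 ± 0.09 without passing (adjusted p = 0.135), and was picked out after seeing its values.

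Nnt, the inner membrane enzyme that makes mitochondrial NADPH from the proton gradient, had 10.53, 10.60 and 10.70 in HFD livers, against 10.37, 10.17 and 10.53 in RD livers. The values came close, and before rounding did not overlap, and the difference of 0.25 ± 0.10 did not pass (adjusted p = 0.202). It was 0.16 without RD replicate 2 and 0.34 without RD replicate 3. The substrain C57BL/6J is known to carry a deletion within this gene. As the labels give no substrain, what transcript this signal reports is not known here.

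By main compartment, the members that passed were mostly cytosolic. Of 18 measured cytosolic members 3 rose and 5 fell, with a median of 0.06. Among 8 mitochondrial members 1 fell, Prdx3, and 6 had a negative difference, with a median of -0.13 and a range from -0.31 to 0.25. At an unadjusted p under 0.05 in limma there were 11 of the 18 cytosolic and 5 of the 8 mitochondrial members. The diets did not overlap for 12 and 7 of them, so small differences were not confined to the cytosol. In the endoplasmic reticulum or secreted, 0 of 7 passed in limma (1 at an unadjusted p under 0.05), with a median of -0.01. Neither catalase of peroxisomes nor the 3 members found in several compartments passed. These shares were not tested against each other. Without regard to the test, HFD and RD arrays did not overlap for 22 of 37 members, or 59.5%, against 25.7% of all genes. At an unadjusted p under 0.05 there were 19 of 37, or 51.4%, against 19.7% of all genes. Neither share over all genes was matched to the members by signal.

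**Figure D3:**
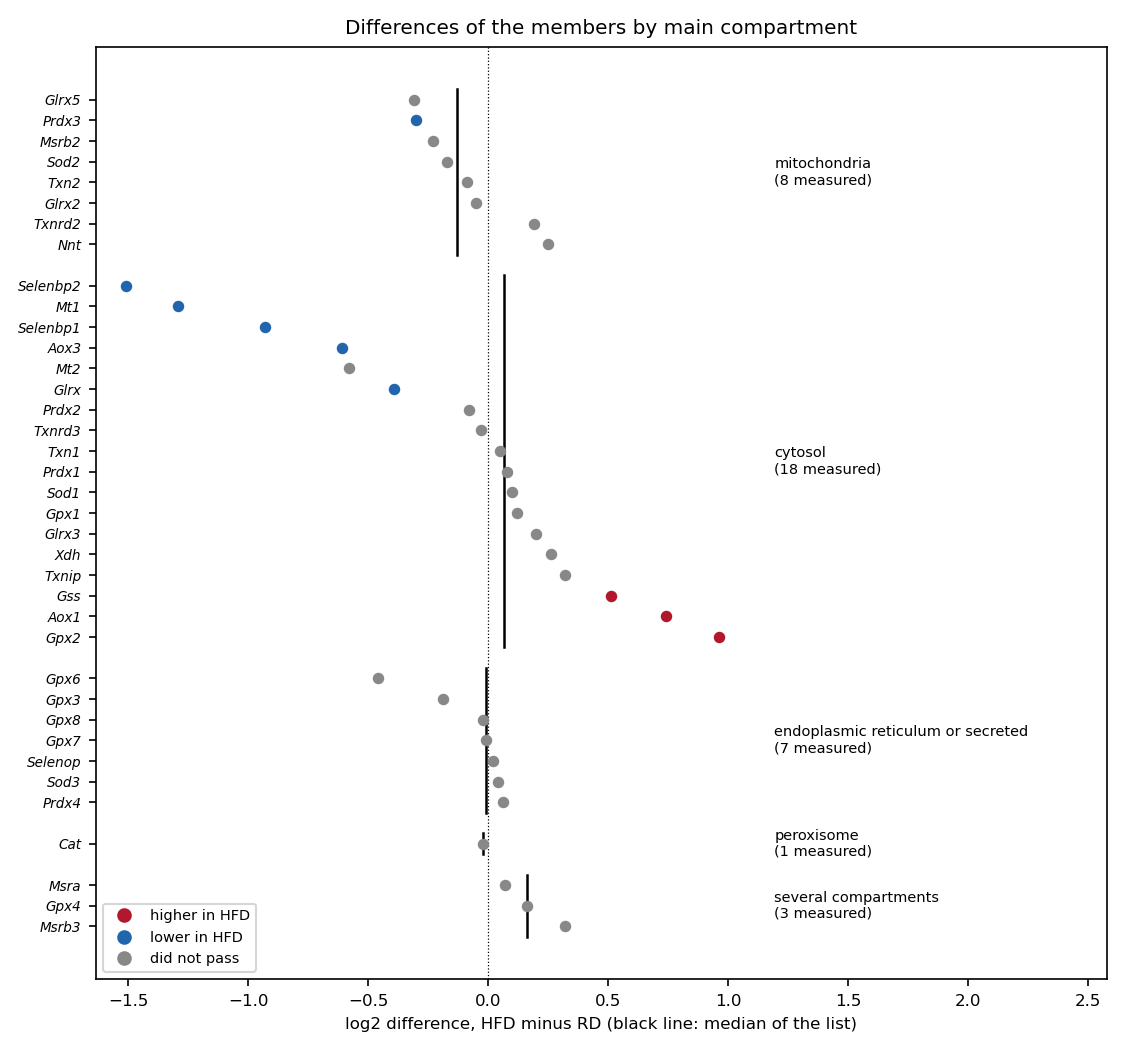
Log2 difference, HFD minus RD, of each measured member by main compartment, with the median of each group as a black line; red was higher and blue lower in HFD at an adjusted p under 0.05. The cytosolic members span -1.51 to 0.96, and the 8 mitochondrial members lie between -0.31 and 0.25.

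**Figure D4:**
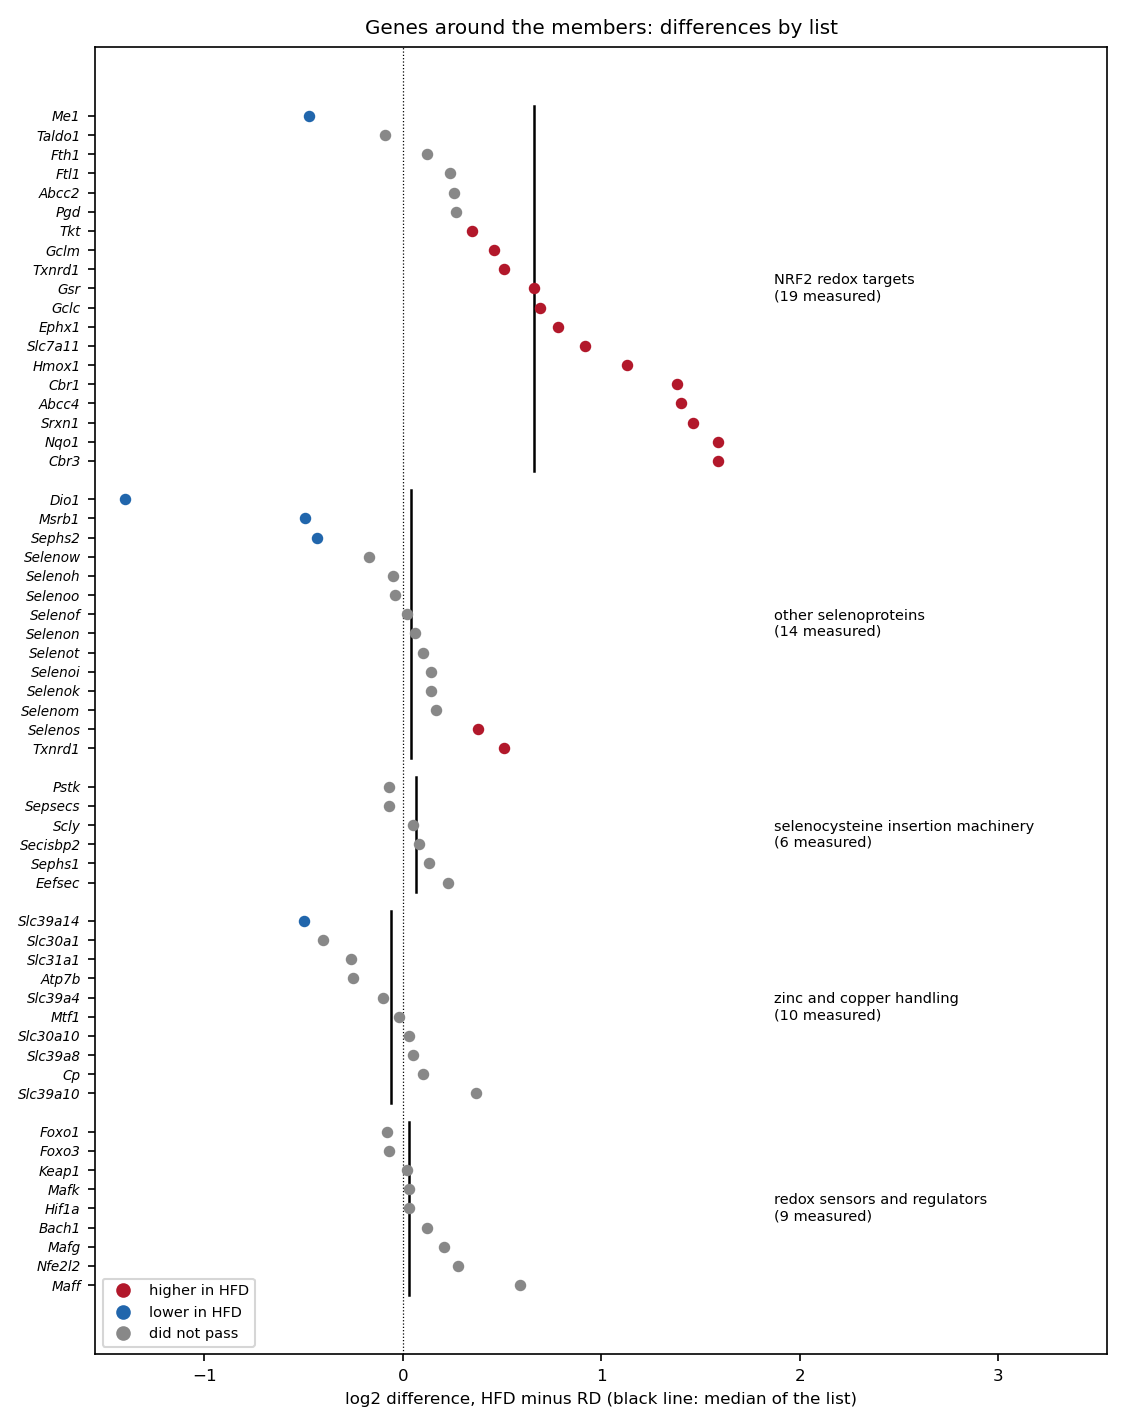
Log2 difference, HFD minus RD, of genes around the members in 5 lists, coloured by the same test, with list medians as black lines. The NRF2 redox targets centre on 0.66, and the other lists centre between -0.06 and 0.06, with Dio1 at -1.40 farthest to the left.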

How the data were processed

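Per the labels' protocols, total RNA of frozen liver was isolated on RNeasy columns and prepared with a GeneChip WT terminal kit. The authors deposited a table of 1 log2 value per probe set and array; base 2 was inferred from the range of 2.28 to 14.86. Their summarisation and normalization are not given in the sources. Array medians of 7.06 to 7.11 were left as deposited. No detection call, scan time or batch entered the tests, and precision is limited by having 3 arrays per diet.

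Probe sets with a single symbol in the platform annotation, 21789 of 35512, were kept, and RefSeq (GRCm38.p6) changed 0 symbols. Each gene was read from its brightest probe set by the mean over 6 arrays, with no filter on dim signals. Diet alone was fitted over all 19938 genes in limma 3.58.1 (R 4.3.3; lmFit, eBayes; two-sided; Benjamini-Hochberg; threshold 0.05), and ± after a difference is the moderated SE. The members, lists and tests were chosen with earlier results of these data known. Array values are printed for members that passed, for the smallest p of a family where none passed, for the paralog pairs and for Nnt; up to 4 genes per list are named by smallest p. The fit was tested on simulated data with 100 genes changed by 0.5 and 100 by 1 on the log2 scale. It recovered 84 and 100 of these, and 19 of its 203 calls were false, a share above the threshold of 0.05. Noise was drawn independently for each gene and array from the moderated variances of the fit, with fewer changed genes than the data had calls. Recovery in the real arrays may therefore differ. Both diets carry replicate numbers 1 to 3, which nothing in the labels ties together. Other fits are given in the closing section. Promoter windows came from RefSeq for 35 of 40 members.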

Additional observations from a re-analysis of the deposited data

How the results depend on the processing

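Members higher in HFD numbered 3 and members lower 6 in the reported fit, of 621 genes higher and 446 lower. With each array left out in turn, which leaves fewer samples, members higher stayed at 3, members lower ranged from 2 to 4, genes higher from 197 to 371 and genes lower from 178 to 273. Adjusting over every row of the table, which tests more features, gave 168 higher and 173 lower rows and 2 members lower, and Gss was then at an adjusted p of 0.0538. An unmoderated linear model gave 41 genes higher and 58 lower and 0 members in either direction (19 members had an unadjusted p under 0.05 in limma), with adjusted p from 0.066 for Selenbp1 upward; the cause was not tested. A fold of at least 1.5 left 208 genes higher and 151 lower. With the replicate number as a block there were 318 genes higher, 245 lower and 3 members lower, with Aox3, Glrx and Prdx3 lost (adjusted p = 0.0596, 0.0887 and 0.0933). The numbers share only a label: same-numbered deviations correlated at -0.107, 0 and 0.117, and 2 of 6 arrays correlated best with their own number. Mt1 did not pass with an intensity trend and robust prior (adjusted p = 0.12). Quantile normalization and the mean of all probe sets kept all 9 members. The 9 members that passed, Mt2, Sod2, Txnrd2, Msrb3 and Nnt kept their direction in each of these fits that tested them; the direction of the other members was not compared across fits. With no detection calls, background limits what the dim Gpx2 and Gpx6 signals show.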
